A study of Mus musculus with 6 samples.

Results

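STAT proteins are latent transcription factors that wait in the cytoplasm, and the genes of 6 of them, Stat2, Stat3, Stat4, Stat5a, Stat5b and Stat6, were followed in mouse prostate cancer cells given CSF-1, the ligand of the CSF-1 receptor. Their probes were taken by the gene name on the array, which gave 10 probes of the 55681 that are not controls (6 of 36083 genes), and 9 of these were among the 34814 probes bright enough to test. The cells were N18-Fms (N18-CFMS in the labels), a single luciferase-transfected subclone of the C2H prostate tumor line from TRAMP mice, transduced with a retrovirus carrying murine c-fms and sorted as a population that displays the receptor. All groups therefore carried c-fms and were grown with serum and dihydrotestosterone. The paper reports that N18 cells secrete CSF-1 themselves and proposes autocrine activation in cells with the receptor. The control cells thus need not be free of CSF-1 signaling. Control cells were left unstimulated (vehicle in the labels), and the stimulated cells received recombinant mouse CSF-1 at 100 ng/mL for 24 h or for 48 h, with 2 single-color Agilent arrays in each of the 3 groups. The times are those of the labels, whereas the methods give shorter ones. A single control group served both times, and the labels give it no time. Time in culture can therefore not be told apart from CSF-1 in the comparisons with control. The RNA came from 2 independent experiments, and as 1 clone was used the arrays do not cover the spread between clones.

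When a cytokine binds its receptor, JAK kinases attached to the receptor phosphorylate STAT proteins, which pair, enter the nucleus and switch on genes, among them the SOCS genes whose products shut the signal off. Stat2 works with Irf9 in the complex that answers type I interferon, Stat3 answers the interleukin-6 family, Stat4 interleukin-12, Stat6 interleukin-4 and interleukin-13, and Stat5a and Stat5b, close relatives encoded side by side, answer growth hormone, prolactin and several blood cell cytokines. STAT activity is set by phosphorylation, which an array of transcripts does not measure.

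Start regions of 3 members are shown as sequence background, and no result below rests on them. Stat2 holds the motif of the interferon complex, and the regions shown for Stat5a and Stat5b share a stretch of sequence. Each is the 250 bases before a RefSeq start site, written 5′ to 3′ along the gene, at chr10:128270248-128270497 (plus strand), chr11:100860234-100860483 (plus strand) and chr11:100822571-100822820 (minus strand) of GRCm38.p6. Stat5a and Stat5b have 2 windows each, and the pair with the closest match is shown. Capitals mark 2 motif matches in Stat2 and, in Stat5a and Stat5b, the 60 bases that match most closely.
Stat2: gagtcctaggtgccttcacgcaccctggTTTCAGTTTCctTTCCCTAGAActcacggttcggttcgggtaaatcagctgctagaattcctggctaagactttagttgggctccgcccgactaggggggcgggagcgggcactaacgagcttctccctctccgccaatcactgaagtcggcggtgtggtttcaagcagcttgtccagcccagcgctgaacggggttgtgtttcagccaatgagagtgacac
Stat5a: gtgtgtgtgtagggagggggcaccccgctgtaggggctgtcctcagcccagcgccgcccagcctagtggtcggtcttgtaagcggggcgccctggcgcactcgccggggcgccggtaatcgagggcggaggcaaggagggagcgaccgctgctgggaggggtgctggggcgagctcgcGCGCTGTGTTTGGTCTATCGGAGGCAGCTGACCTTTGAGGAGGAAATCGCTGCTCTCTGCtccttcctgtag
Stat5b: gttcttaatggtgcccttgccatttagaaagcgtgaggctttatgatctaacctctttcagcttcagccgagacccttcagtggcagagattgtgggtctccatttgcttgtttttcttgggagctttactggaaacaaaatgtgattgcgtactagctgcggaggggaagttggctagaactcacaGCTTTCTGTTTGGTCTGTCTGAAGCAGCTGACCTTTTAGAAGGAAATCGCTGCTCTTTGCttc
RefSeq windows of 300 bases, 250 of them before the start, were given for all 6 members, 9 windows in all. The interferon-stimulated response element, searched as GAAANNGAAA on both strands, was matched in the 1 window of Stat2 (TTTCAGTTTC, the reverse strand, beginning 222 bases before the start), in 1 of 2 windows of Stat4 and in none of Stat3, Stat5a, Stat5b or Stat6, against 3.44% of 32851 mouse windows. The spacing usually given for Stat6, TTCNNNNGAA, was matched by Stat2 as TTCCCTAGAA 210 bases before the start, and 6.95% of all windows held it. The gamma-activated site TTCNNNGAA was found in 0 of the 9 windows and in 8.3% of all windows. The 2 matches in Stat2 do not overlap. Between the Stat5a and Stat5b sequences, 51 of the 60 capital bases were identical (85%). These matches describe letters in the windows and do not show binding.

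Values are log2 signal relative to the 75th percentile of the array, so that 0 is the signal of a probe brighter than 75 percent of the spots, and a difference of 1 is a 2-fold change. Levels of different probes are not comparable, because probes differ in how strongly they bind. Between 58.7% and 72.0% of the 59305 spots on each array were well above background and 0 were saturated. In such bulk samples fewer cells of a type and less RNA per cell cannot be told apart.

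**Figure D1:**
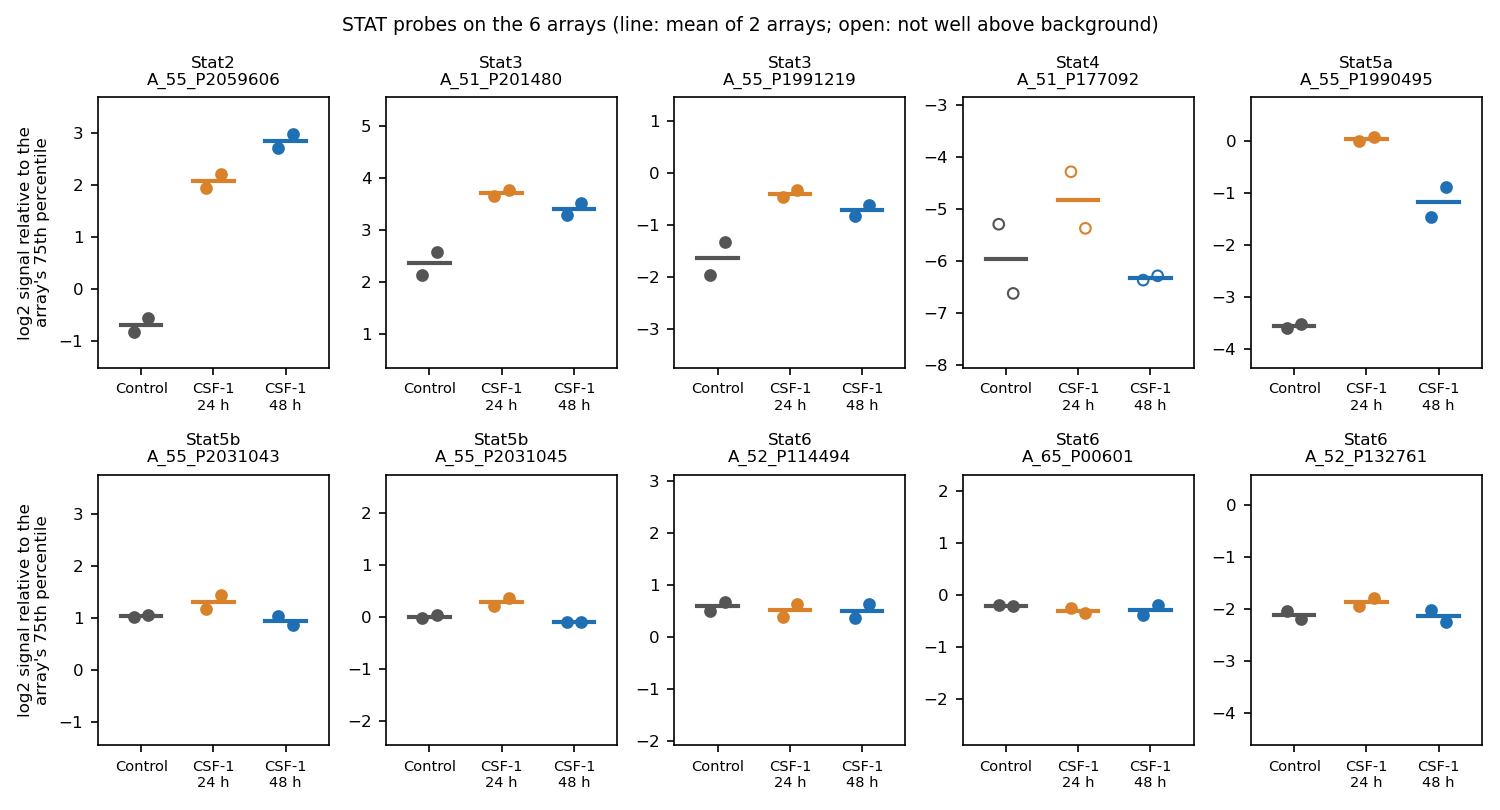
Log2 signal of the 10 STAT probes relative to the array's 75th percentile (vertical axis, same span in every panel) on the 2 control, 2 CSF-1 24 h and 2 CSF-1 48 h arrays; points are arrays, lines are group means and open points are not well above background. Stat2 rose from -0.83 and -0.57 to 2.71 and 2.98 at 48 h, Stat5a was higher at 24 h than at 48 h, and the first Stat5b probe stayed between 0.86 and 1.44.

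After CSF-1 stimulation the transcripts of 3 of the 6 genes, Stat2, Stat3 and Stat5a, were higher than in control cells. Stat5a was up 12.1-fold and Stat2 6.82-fold at 24 h, and Stat2 was up 11.7-fold and Stat5a 5.23-fold at 48 h. With normexp background correction the log2 changes at 24 h were 2.49 for Stat5a and 2.52 for Stat2, so that the larger increase of Stat5a was not kept. Neither Stat5b nor Stat6 passed the test on any probe at either time, and Stat4 was not well above background on any array. By limma's test with Benjamini-Hochberg adjustment over all probes, 4 of the 9 STAT probes tested were called higher at 24 h, where 7.61% of all probes tested were called higher and 12.7% in either direction. At 48 h, 3 of 9 were called higher, against 5.62% of all probes higher and 11.6% in either direction. No STAT probe was called lower at either time. Of all probes 5.07% and 6.01% were, shares too small for an absence among 9 probes to be read as a difference. Both comparisons use the same 2 control arrays and are not independent of each other.

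Stat2 was represented by 1 probe, A_55_P2059606, at chr10:127729834-127729893 on the plus strand of mm9. Its level was -0.83 and -0.57 on the control arrays, 1.93 and 2.21 at 24 h, and 2.71 and 2.98 at 48 h. The 3 groups did not overlap, and each stimulated array lay above both control arrays. The log2 change was 2.77 ± 0.18 (SE, 95% interval 2.32 to 3.22, adjusted p = 0.00286) at 24 h and 3.54 ± 0.18 (95% interval 3.09 to 3.99, adjusted p = 0.00164) at 48 h. Of the 34814 probes tested, ordered by log2 change, it ranked 304th at 24 h and 214th at 48 h. Its level at 48 h was above that at 24 h by 0.77 on the log2 scale (95% interval 0.33 to 1.22), a difference whose adjusted p was 0.201.

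Stat5a, on probe A_55_P1990495 at chr11:100746373-100746432 (plus strand, mm9), was dim in control cells but well above background on all 6 arrays. Its level was -3.61 and -3.52 in control cells, -0.0019 and 0.07 at 24 h, and -1.47 and -0.89 at 48 h. No array of one group reached the range of another, with the 48 h arrays in between. The log2 change was 3.60 ± 0.21 (SE, 95% interval 3.08 to 4.13, adjusted p = 0.00226) at 24 h and 2.39 ± 0.21 (95% interval 1.86 to 2.91, adjusted p = 0.00488) at 48 h. From 24 h to 48 h the level moved by -1.22 (95% interval -1.74 to -0.69, adjusted p = 0.157). The size depended on how background was handled, as normexp correction followed by the 75th percentile shift gave 2.49 at 24 h and 1.47 at 48 h, both still called.

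Stat5b is encoded beside Stat5a on chromosome 11 and had 2 probes, A_55_P2031043 (chr11:100642045-100642104) and A_55_P2031045 (chr11:100642187-100642246), both on the minus strand of mm9. The first read 1.02 and 1.05 in control cells, 1.17 and 1.44 at 24 h, and 1.03 and 0.86 at 48 h. The second read -0.03 and 0.03, then 0.21 and 0.37, then -0.10 and -0.09. On both probes the 24 h arrays were slightly above all others, whereas the 48 h arrays overlapped the control arrays on the first probe and lay just below them on the second. The log2 changes at 24 h were 0.27 (95% interval -0.08 to 0.63, adjusted p = 0.268) and 0.29 (95% interval -0.0085 to 0.58, adjusted p = 0.174). At 48 h they were -0.09 on both probes, with 95% intervals of -0.45 to 0.27 and -0.39 to 0.20. With median centring the 24 h values became -0.03 and -0.01, so the direction at 24 h depends on the scaling.

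Within each array the Stat5a signal was set against that of Stat5b, which removes the scaling of the array. The log2 difference, Stat5a minus Stat5b on probe A_55_P2031043, was -4.63 and -4.58 in control cells, -1.18 and -1.37 at 24 h, and -2.49 and -1.75 at 48 h. It was higher on all 4 stimulated arrays than on either control array, by 3.33 at 24 h and 2.48 at 48 h, and with the other Stat5b probe by 3.31 and 2.48. The exact permutation test, 2-sided, gave p = 0.333 at both times, which is the smallest that 2 arrays against 2 allow. The pair thus changed unequally in these arrays. The Stat5a and Stat5b probes shared runs of at most 7 of their 60 bases.

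Stat3 had 2 probes on the minus strand of mm9, A_51_P201480 at chr11:100749598-100749657, printed on 10 spots of each array, and A_55_P1991219 at chr11:100759946-100760005. The repeated probe read 2.13 and 2.57 in control cells, 3.64 and 3.76 at 24 h, and 3.28 and 3.51 at 48 h. The single-spot probe read -1.95 and -1.33, then -0.46 and -0.33, then -0.83 and -0.61. On both probes the 4 stimulated arrays lay above the control arrays and the 24 h arrays above the 48 h arrays. The repeated spots of an array had an SD of 0.027 to 0.046.

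On the repeated probe Stat3 rose by 1.35 ± 0.19 (SE, adjusted p = 0.0149) at 24 h and 1.04 ± 0.19 (adjusted p = 0.0299) at 48 h, on the log2 scale. The single-spot probe gave 1.25 ± 0.23 (adjusted p = 0.0295) at 24 h and 0.92 ± 0.23 (95% interval 0.35 to 1.50, adjusted p = 0.0613) at 48 h, the second not called. From 24 h to 48 h the repeated probe moved by -0.30 (95% interval -0.78 to 0.17). The calls of Stat3 were less firm than those of Stat2 and Stat5a, which remained when any single array was left out. Leaving out control replicate 1, 24 h replicate 1 or 24 h replicate 2 left 2 of the 4 STAT calls at 24 h, those of Stat2 and Stat5a, with adjusted p of 0.0522, 0.0636 and 0.0747 for the repeated Stat3 probe. Leaving out any of the 6 arrays took the Stat3 call at 48 h away (adjusted p = 0.0523 to 0.129). The 24 h replicate 1 array alone was on a slide and in a scan of its own, and without it Stat3 was higher by 1.40 on the repeated probe.

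**Figure D2:**
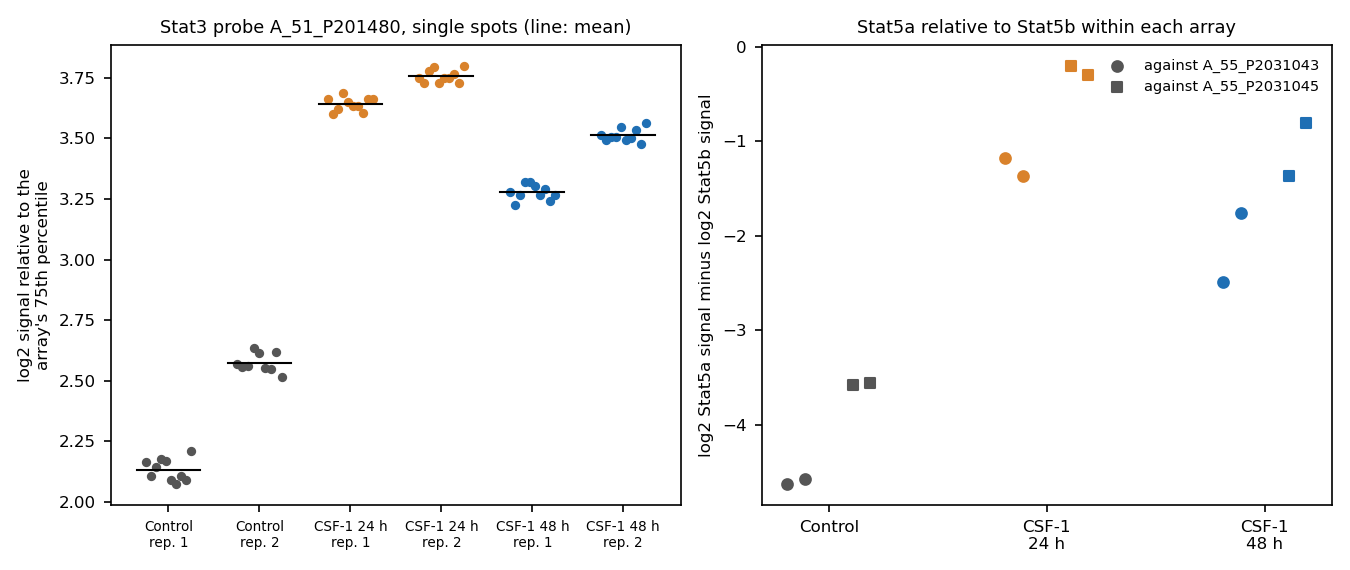
Left, log2 signal of each spot of the repeated Stat3 probe relative to the array's 75th percentile, by array, with the mean as a line; right, log2 Stat5a signal minus log2 Stat5b signal on each array for both Stat5b probes. Spots of one array scatter by an SD of at most 0.046, and the Stat5a minus Stat5b difference moved from -4.63 and -4.58 in control cells to -1.18 and -1.37 at 24 h on the first Stat5b probe.

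Stat6 had 3 probes on the plus strand of chromosome 10, at chr10:127097689-127097748 (A_52_P114494), chr10:127095694-127095753 (A_65_P00601) and chr10:127083983-127084042 (A_52_P132761) in mm9. The first read 0.50 and 0.68 in control cells, 0.39 and 0.65 at 24 h, and 0.37 and 0.65 at 48 h. Its groups overlapped throughout. At 24 h the log2 changes were -0.07, -0.10 and 0.25, with 95% intervals that together ran from -0.49 to 0.61, and at 48 h they were -0.08, -0.08 and -0.03, with intervals from -0.50 to 0.33. The 3 probes of Stat6 did not differ from 0 in one direction at 24 h, and every interval excluded a 2-fold change.

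Stat4, on probe A_51_P177092 at chr1:52163802-52163861 (plus strand, mm9), read -5.29 and -6.62 in control cells, -4.28 and -5.37 at 24 h, and -6.36 and -6.28 at 48 h. It was not well above background on any of the 6 arrays, so these values carry no fold change and no test. The build of the probes had no annotation here, and the exon each probe lies in was not determined.

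**Figure D3:**
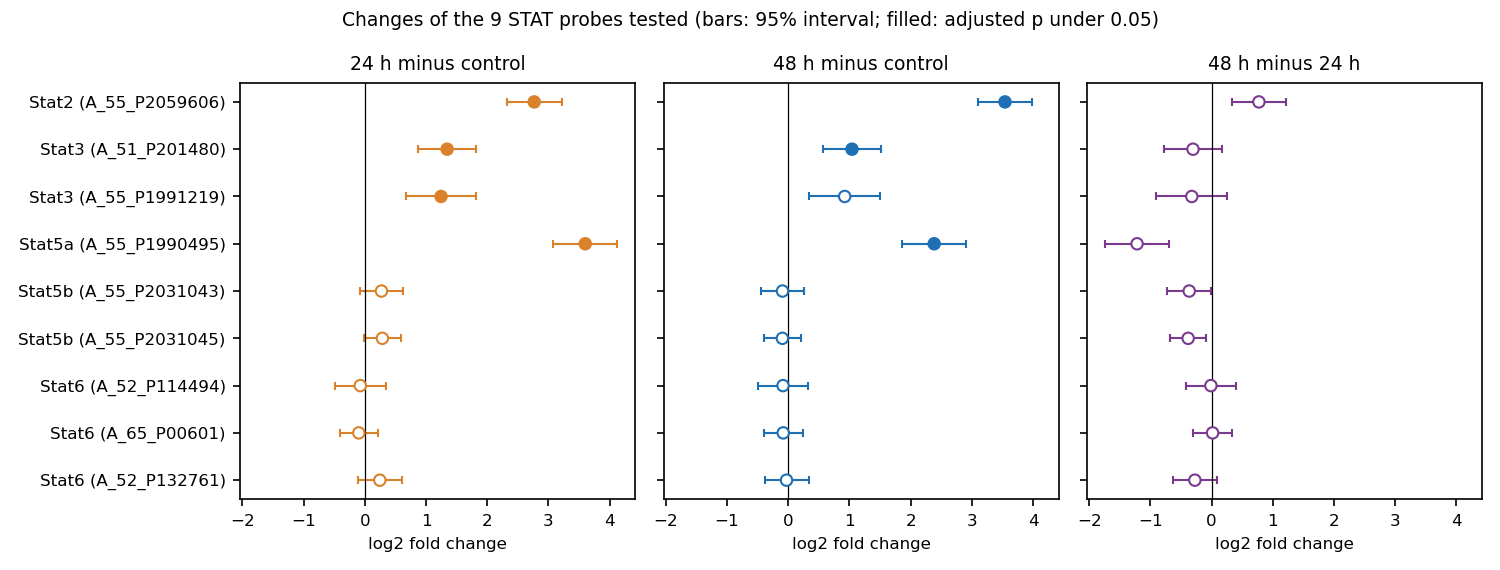
Log2 fold changes of the 9 STAT probes tested (horizontal axis) for 24 h minus control, 48 h minus control and 48 h minus 24 h; bars are 95% intervals from limma and filled points have an adjusted p under 0.05. Stat2, Stat5a and both Stat3 probes are filled at 24 h, the single-spot Stat3 probe is open at 48 h at 0.92, and all 9 points are open for 48 h minus 24 h.

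The 48 h and 24 h arrays were also compared directly. By limma with adjustment 0 of the 9 STAT probes were called, as were 0 of all probes tested (percent called, 0). At an unadjusted p under 0.05, limma gave 4 of the 9, namely Stat2, Stat5a and the 2 Stat5b probes, where 13.6% of all probes passed, and the methods' t-test gave 1 of 9, where 10.3% of all probes passed. With the thresholds of an unadjusted p under 0.05 and a 2-fold change, 1 STAT probe passed, Stat5a, against 2.46% of all probes. After normexp correction the decrease of Stat5a from 24 h to 48 h passed the adjusted threshold (-1.02, adjusted p = 0.0251). The order of the levels was control, 24 h, 48 h for Stat2 and control, 48 h, 24 h for Stat3 and Stat5a, with the neighbouring times 24 h and 48 h not separated after adjustment.

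For the brightest probe of each member, the genes with the most similar course over the 6 arrays were sought among 18320 probes. Isg15, an interferon-induced ubiquitin-like protein, Gbp2, an interferon-induced GTPase, and Gm9706 followed Stat2 with Pearson's r of 0.999 each. The course of Stat3 was most like those of Rad54l2 (0.999), Clip2 (0.998) and Cfap45 (0.997), and that of Stat5a most like those of B3gnt2 (0.999), Nat2 (0.999) and Spred1 (0.998). Those nearest to Stat5b were Zfp111 (0.986), Slc29a2 (0.985) and Brip1 (0.985), and close to Stat6 were Yaf2 (0.996) and Stk24 (0.991). For Stat4 they were Pou4f1 (0.999), Prpmp5 (0.996) and Plagl1 (0.995), although the Stat4 values are at background. These are descriptions over 6 arrays in 3 groups, in which many probes with 3 distinct group means correlate closely. Each value is the highest among 18320 probes and owes part of its size to that choice. The groups of the Stat6 probe overlapped, with replicate 2 above replicate 1 in each. It correlated at 0.38 and -0.29 with the other Stat6 probes, so its likeness to other genes may follow differences between replicates.

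The partners of the STATs were described from lists of ligands, receptors, kinases and inhibitors, chosen with earlier results of these data known. Their counts beside the shares of all genes are therefore descriptions and no test. Of 60 genes on these lists 49 were tested. At 24 h, 17 were called higher and 2 lower, where 7.55% of all genes tested were called higher and 5.22% lower (12.8% in either direction), and at 48 h, 15 were called higher and 1 lower, where the shares were 5.91% and 6.22% (12.1%). Their median log2 change was 0.41 at 24 h and 0.13 at 48 h, beside 0.04 and -0.04 over all 24619 genes tested. The counts rest on few arrays, and leaving out any single array lowered them at both times. The calls over all probes fell in the same fits, so the fall was not confined to these genes.

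Among the ligands 9 of 18 were tested. Called higher were 3 at 24 h and 2 at 48 h, where 7.55% and 5.91% of all genes were. Called lower were 1 and 0, where 5.22% and 6.22% of all genes were. Il6, the interleukin-6 cytokine that signals to Stat3, rose by 5.56 (adjusted p = 0.00739) and 6.41 (adjusted p = 0.00499) on the log2 scale. Its control arrays read -6.86 and -5.44 and 1 of 2 was well above background, so the size of this change is uncertain. Clcf1, a cytokine of the same family, rose by 1.59 and 0.95, and Ctf1, cardiotrophin 1, fell by 0.66 at 24 h (adjusted p = 0.0369). The interferon genes Ifnb1 and Ifng were too dim to be tested.

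Of 21 receptor chains 19 were tested, with 5 called higher and 1 lower at 24 h and 4 higher and 1 lower at 48 h. Of all genes 7.55% were called higher and 5.22% lower at 24 h, and 5.91% and 6.22% at 48 h. Il13ra1, an interleukin-13 receptor chain upstream of Stat6, rose by 3.90 at 24 h and 3.87 at 48 h. Again 1 of 2 control arrays, at -5.66 and -4.56, was well above background, so the size is uncertain here too. Il4ra, the interleukin-4 receptor chain that also precedes Stat6, rose by 2.07 and 1.50, and Ghr, the growth hormone receptor upstream of Stat5a and Stat5b, by 1.33 and 1.95. The chain called lower at both times was Ifngr1 of the interferon-gamma receptor, at -0.71 and -0.68, a gene outside the naming rule and given because it was the only one.

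Of the 4 JAK kinases Jak2 rose by 1.10 (adjusted p = 0.0143) and 1.24 (adjusted p = 0.0114) and Jak3 by 1.86 (adjusted p = 0.00318) and 1.69 (adjusted p = 0.00313). Jak1 gave -0.37 and 0.0021 and Tyk2 0.10 and 0.28, none called. Irf9, the partner that gives the Stat2 complex its DNA binding, rose by 2.73 at 24 h and 2.79 at 48 h.

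Of the 8 SOCS genes, which inhibit the pathway, 5 were called higher at both times, where 7.55% and 5.91% of all genes were. Among the 5 were Socs3, up by 3.74 and 2.91, Cish by 3.38 and 3.05 and Socs2 by 2.08 and 1.73. None of the 4 PIAS genes, Pias1, Pias2, Pias3 and Pias4, was called by limma, where 12.8% and 12.1% of all genes were in either direction. Those shares are too small for an absence among 4 genes to be read as a difference. The PIAS values lay between -0.18 and 0.11 at 24 h and between -0.16 and 0.13 at 48 h. Of 4 tyrosine phosphatases Ptpn6, found mainly in blood cells, rose by 1.27 and 1.16, whereas Ptpn1 gave 0.14 and 0.09, Ptpn2 -0.36 and -0.43 and Ptpn11 -0.39 and -0.44.

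**Figure D4:**
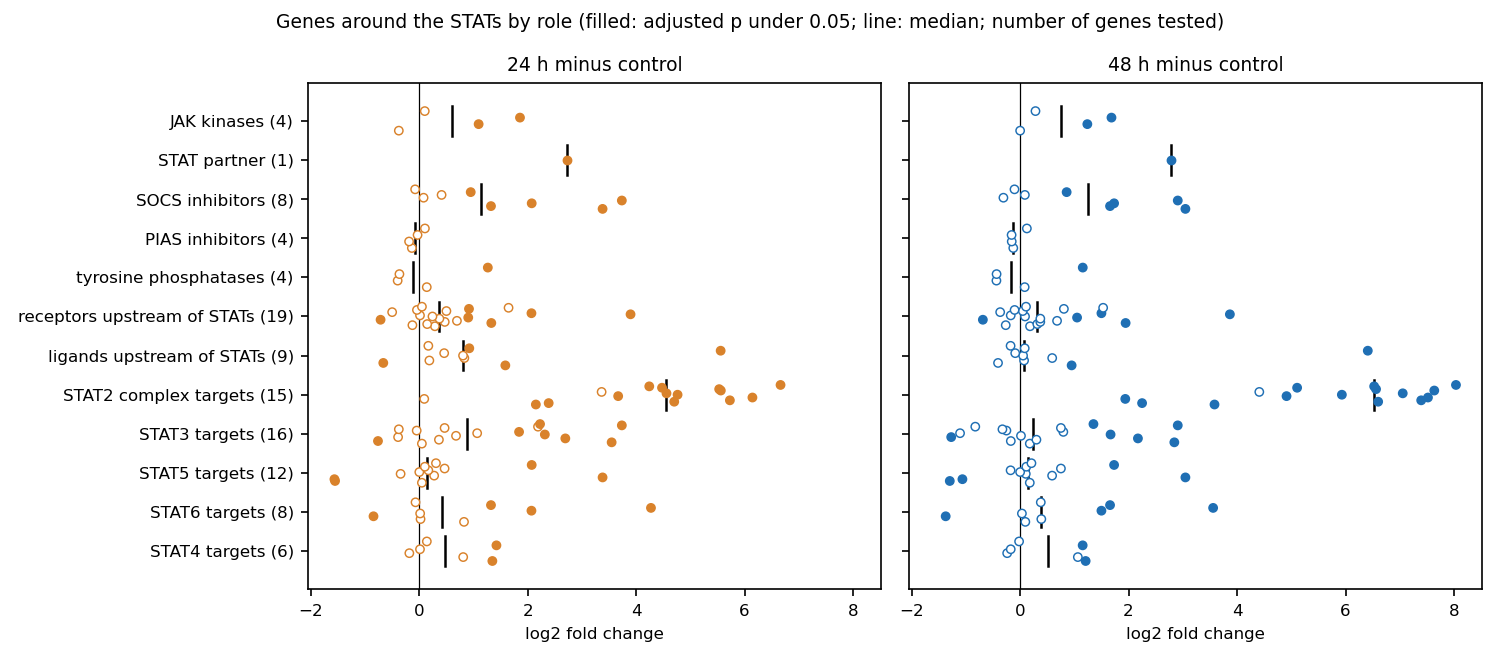
Log2 fold changes (horizontal axis) at 24 h and 48 h of the genes tested in each list, with the number tested in brackets, the median as a line and filled points for an adjusted p under 0.05. The STAT2 complex targets lie to the right at both times with medians of 4.56 and 6.53, and the PIAS inhibitors lie near 0.

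Genes described as targets of each STAT were read beside the transcript of that STAT. Of 15 targets of the Stat2 complex 13 were called higher at 24 h and 14 at 48 h, beside the 7.55% and 5.91% of all genes given above. The target lists, too, were chosen with earlier results of these data known, so a count above these shares is a description and no test. Mx1, Oas2, Rsad2 and Cmpk2 were well above background on neither control array and were tested only because stimulated arrays were bright. Of the 11 others, a count added after the values were seen, 9 were called higher at 24 h and 10 at 48 h. Over all 15 the median log2 change was 4.56 and 6.53, or 4.48 and 5.85 when those 4 genes stand at their bounds. Usp18, a protease that restrains interferon signaling, rose by 6.66 and 8.04, Ifit3, an antiviral RNA-response gene, by 6.14 and 7.52, and Oas1a, an oligoadenylate synthetase, by 5.56 and 7.64. From 24 h to 48 h, 11 of the 15 passed an unadjusted p under 0.05 and a 2-fold change, against 2.26% of all genes, while 0 passed the adjusted threshold.

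Of 16 genes described as Stat3 targets, 6 were called higher and 1 lower at 24 h and 5 higher and 1 lower at 48 h, with medians of 0.88 and 0.24. Over all genes 7.55% were called higher and 5.22% lower at 24 h, and 5.91% and 6.22% at 48 h. Socs3 was described above, Bcl3, a partner of NF-kappaB, rose by 3.55 and 2.84, and Cebpd, a transcription factor of the acute phase response, by 2.70 and 2.17. The genes called lower, named after their values were seen, were Ccnd1 at 24 h (-0.76), a cyclin of the cell cycle, and Hp at 48 h (-1.27), which encodes haptoglobin.

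Of 12 Stat5 targets 2 were called higher and 2 lower at both times, where 12.8% and 12.1% of all genes were called in either direction, and the median was 0.14 and 0.15. Those higher were the inhibitors Cish and Socs2, and those lower were Bcl6, a transcriptional repressor, at -1.55 and -1.29, and the cyclin Ccnd2, named after its values were seen, at -1.56 and -1.06. Among the 8 not called was Igf1, the growth factor gene that answers growth hormone in liver, at 0.0040 and 0.0020. It is outside the naming rule and does not stand for the others.

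Of 14 Stat6 targets 8 were tested, beside no called change of Stat6 itself. At both times 3 were called higher and 1 lower, where 12.8% and 12.1% of all genes were called in either direction. The higher ones were the mannose receptor Mrc1, by 4.27 and 3.56, Il4ra, and Socs1 by 1.33 and 1.66, and the lower one, named after its values were seen, was the chitinase-like gene Chil3, at -0.84 and -1.37. Of 9 Stat4 targets 6 were tested and 2 were called higher at both times, where 7.55% and 5.91% of all genes were, while Stat4 was at background. The 2 were Il18rap, a chain of the interleukin-18 receptor, by 1.43 and 1.15, and the protease gene Furin by 1.35 and 1.21. The target lists share genes with each other and with the inhibitors, and the genes on them answer other factors too.

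The labelled cell type was checked against its markers. Of 11 epithelial markers 4 were well above background on all 6 arrays, among them Krt8, Krt5 and Krt14, whereas Cdh1 and Hoxb13 were on none, and the log2 of their summed signal relative to the 75th percentile was 0.94 to 1.25 in control cells, 1.07 to 1.09 at 24 h and 1.45 to 1.48 at 48 h. These keratins lay between -3.50 and -2.37 in control cells, and the sum was made up mainly by the other of the 4, not reported here. Of 15 macrophage markers 8 were well above background on all 6 arrays and Lyz2, Cd163 and Spi1 on none. Their summed level was 6.22 to 6.24 in control cells, 6.23 to 6.25 at 24 h and 5.90 to 6.12 at 48 h, a sum made up mainly by Itgam and by Csf1r, the gene with which the cells were transduced. Without these 2 genes, a sum added after the levels were seen, it was 1.61 to 1.70 in control cells, 3.05 to 3.06 at 24 h and 3.04 to 3.15 at 48 h. Of the macrophage markers, 4 of 9 tested, Mrc1, Mpeg1, Mertk and Cd14, were called higher at both times, beside the increases of Stat2, Stat3 and Stat5a. Of all genes 7.55% and 5.91% were called higher. By sign alone, 8 of these 9 markers were higher and 1 lower at 24 h, and 6 were higher and 3 lower at 48 h. Of all 24619 genes, 13421 and 11042 were higher. Of the epithelial markers 0 of 7 tested were called at 24 h and 1 of 7 at 48 h, Krt8, higher by 1.98 (limma, adjusted p = 0.0127). Of 13 lymphocyte markers 7 were well above background on all 6 arrays and Cd3g, Cd2 and Ms4a1 on none, with summed levels of 4.65 to 4.93, 4.82 to 4.91 and 4.82 to 5.17. None of the 9 tested was called by limma, where 12.8% and 12.1% of all genes were called in either direction. These shares are too small for an absence among 9 genes to be read as a difference. Sums of different marker lists are not comparable with each other, because probes differ in how strongly they bind. The part of such markers in the STAT results was not tested. The Csf1r probe changed by 0.22 and -0.07, neither called.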

How the data were processed

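Expression was measured on 6 Agilent single-color arrays. The members and gene lists were chosen with earlier results of these data known. The authors quantified spots with Agilent Feature Extraction (11.0.1 in the submitters' processing notes, 11.0.1.1 in the file headers) and deposited the background-subtracted signal of each spot, a linear intensity not normalized between arrays, with mean and background pixel intensity and flags. They also deposited log2 values for part of the probes, and over 44323 probes 99.8% of differences between arrays were within 0.05 of those of the signals, apart from a constant for each array; column medians were 0.026, -0.037, 0.17, 0.0065, -0.0095 and -0.024. Their log2 scale and direction follow the signals, whereas the per-probe centring is unstated. The authors' t-test and volcano thresholds served as alternatives.

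Outlier-flagged spots were left out, repeated spots averaged, and the log2 signal minus the array's 75th percentile taken. For 303 probes every spot was flagged on some array, which left 55378. The 34814 probes that some group showed well above background on its 2 arrays were tested in R 4.3.3 with limma 3.58.1 (lmFit, eBayes, all 6 arrays in one fit, 3 residual and 2.38 prior degrees of freedom, 2-sided), each probe on its own, with Benjamini-Hochberg adjustment and calls under 0.05. The procedure was tested on simulated data. The SE pools the spread of all groups. The brightest probe stood for each gene of the lists. Files gave gene names, of which RefSeq matched 18380 of the probes tested by symbol, 2038 by accession and 273 by synonym. Motif searches and figures used Python 3.11.15 and matplotlib 3.10.9.

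Named were all member probes, of each list all genes where it holds 4 or fewer and otherwise the 3 with the largest mean change among those called, and the 3 genes most like each member. Alternatives were quantile normalization, median centring, normexp correction (offset 50), the authors' log2 values, other dim-probe filters, 1 probe per gene, an intensity trend, only the groups compared, the slide and the replicate number as blocks, and each array left out. The number of arrays limits the precision. Replicate arrays had no probe with identical values (0 of 34814). Nothing states that a replicate number marks one experiment. Some genes that these rules take in are not reported here.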

Additional observations from a re-analysis of the deposited data

How the results depend on the processing

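Of 528 recomputed log2 changes of STAT probes, 465 kept their direction and their side of the threshold, 33 lost and 10 gained a call, and 20 changed sign without being called in either setting. Those 20 were values of Stat5b and Stat6, and no called change turned. Stat2 and Stat5a against control lost their calls only in the methods' t-test after Benjamini-Hochberg adjustment (adjusted p = 0.118 to 0.162), where 0 STAT probes and 0 pathway genes were called at either time. Without a filter on dim probes, which tests more probes, 2 STAT probes and 7 pathway genes were called at 24 h and 8 pathway genes at 48 h. Of all 55378 probes, 867 were then called higher and 244 lower at 24 h, and 590 and 123 at 48 h. With the slide as a block, which sets aside 24 h replicate 1, 2 STAT probes and 9 pathway genes were called at 24 h. Between 48 h and 24 h, in place of 0 calls, normexp correction gave 1, normexp with quantile normalization 2 (Stat5a at -1.04 and Stat2 at 0.77), an intensity trend 1, the methods' t-test unadjusted 1 and the unadjusted 2-fold rule 1. The cause of these differences was not tested. With single arrays left out, calls of STAT probes ranged from 2 to 4 at 24 h and were 2 throughout at 48 h and 0 between the times, and pathway calls ranged from 8 to 17 at 24 h and from 7 to 14 at 48 h. The calls over all probes against control fell in each of these fits too. Median centring moved the median of all probes from 0.05 to -0.26 at 24 h and from -0.05 to -0.15 at 48 h, and against that shift Stat2 was at 2.47 and 3.44 and Stat5a at 3.30 and 2.28. The all-probe calls at 24 h were 2649 higher and 1764 lower, but 1528 and 4825 with median centring, 1834 and 1837 with quantile normalization, 2935 and 3022 with normexp and 2353 and 2911 with both, while the STAT calls stayed in the higher direction. With 2 arrays a group and Stat4 at background, small changes of dim probes were not detectable.

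Replicates sharing a number deviated from their group means with correlations of 0.109, 0.0956 and 0.171, so the numbers were not taken as pairs. The replicate block made the single-spot Stat3 probe pass at 48 h (0.92, adjusted p = 0.0421), gave 4 STAT calls at each time against control, 21 and 18 pathway calls, and turned no direction. Over all probes it gave 2864 calls higher and 1788 lower at 24 h, beside 2649 and 1764 in the main fit. At 48 h it gave 2204 and 2276, beside 1955 and 2094.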

Other observations

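Stat5b, Stat5a and Stat3 lie next to each other on mouse chromosome 11, and their neighbours on both sides were read in the same fit. On the Stat5b side, Ghdc gave log2 changes of -0.20 at 24 h and -0.50 at 48 h, and Hcrt, the orexin gene, -0.18 and -0.06, none of them called. On the Stat3 side, Cavin1, which encodes a coat protein of caveolae, fell by 0.69 (adjusted p = 0.0274) at 24 h and 0.55 (adjusted p = 0.0478) at 48 h, and Atp6v0a1, a subunit of the vacuolar proton pump, gave 0.37 and 0.53, not called. Stat5a at 3.60 and 2.39 and Stat3 at 1.35 and 1.04 were the genes called higher among these 7 neighbours.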
